A study of Eucalyptus grandis and Eucalyptus globulus with 10 samples.

Results

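Of 21413 transcript features measured in leaf and wood-forming tissue of Eucalyptus trees, 48 were both bright and nearly constant over tissue, species and clone. A feature was taken when its log2 expression value lay above the median of every one of the 10 arrays and its highest value exceeded its lowest by less than 0.5 log2 units. The first condition was met by 6599 features. A further 430 features had a range under 0.5 without lying above every median. Range and brightness on these same 10 arrays chose the 48 features, so their narrow spread is a description and carries no test.

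The tissues came from clonal, field-grown trees that were 4 years old, and a ramet is 1 tree of a clone. Mature leaf blade (E. grandis clone A) was compared with differentiating xylem of E. globulus clones B and A and of E. grandis clones B and A, with 2 ramets in each of these 5 groups. The leaf blades had their central vein removed, xylem was scraped from the debarked stem, and none of the groups carried a treatment. Both leaf samples were of 1 clone, clone letters are not shared between species, and E. globulus leaf was not analysed here. The deposited files and the reference gene table used here did not pair feature IDs with genes (0 of 21413 IDs matched), so features are given by ID, no function is attached to them, and tissue markers could not be looked up.

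Transcripts whose level hardly differs between tissues and genotypes are the usual yardstick in plant expression work. In reverse-transcription PCR the amount of a target transcript is given relative to such reference transcripts, so that unequal amounts of RNA or unequal cDNA synthesis cancel. Genes of basic cell functions, such as those for actin, tubulin, ubiquitin or translation factors, are common candidates, and their steadiness has to be shown anew for each tissue and species. Wood-forming xylem and leaf blade are a demanding pair, since one builds secondary cell walls and the other carries out photosynthesis. On an array the same idea applies to a feature, which here was a set of 9 probe pairs printed in each of 2 blocks. All 48 features had the full 9 probe pairs.

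The values are RMA expression values, a summary of probe brightness, on the log2 scale and averaged over the 2 blocks of an array. The 10 arrays had medians between 219 and 234 expression units on the linear scale. Interquartile ranges ran from 2.11 log2 units on leaf ramet 1 to 2.84 on E. globulus clone A ramet 1. Values of different features were not compared as transcript amounts, since each feature has its own probes. Array number limits the precision, with 2 arrays per group.

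LYPTUS00S00004483 was the steadiest of the 48 features by its SD over the 10 arrays. It had log2 values of 8.61 and 8.69 in leaf, 8.66 and 8.86 in E. globulus clone B xylem, 8.77 and 8.73 in E. globulus clone A xylem, 8.74 and 8.71 in E. grandis clone B xylem, and 8.68 and 8.91 in E. grandis clone A xylem. The lowest value was that of leaf ramet 1 and the highest that of E. grandis clone A xylem ramet 2, and leaf lay within the span of the xylem groups apart from this lowest value. Its mean was 8.74 ± 0.09 (SD, n = 10), and the highest array was 1.23-fold the lowest.

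LYPTUS00S00004316 and LYPTUS00S00017953 came next, with similar brightness. LYPTUS00S00004316 had log2 values of 8.46 and 8.38 in leaf, 8.27 and 8.51 in E. globulus clone B xylem, 8.55 and 8.41 in E. globulus clone A xylem, 8.45 and 8.47 in E. grandis clone B xylem, and 8.63 and 8.57 in E. grandis clone A xylem. LYPTUS00S00017953 had 8.35 and 8.31 in leaf, 8.15 and 8.44 in E. globulus clone B, 8.39 and 8.22 in E. globulus clone A, 8.48 and 8.28 in E. grandis clone B, and 8.40 and 8.25 in E. grandis clone A. For both, the lowest array was E. globulus clone B ramet 1, and the leaf values lay inside the range of the 8 xylem arrays. The ranges were 0.36 and 0.33 log2 units in this order.

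Brighter features of the set were fewer, and the examples here had a range under 0.5 on the deposited scale but not after quantile normalisation. LYPTUS00S00003743 had log2 values of 11.26 and 11.18 in leaf, 11.14 and 10.97 in E. globulus clone B xylem, 11.37 and 11.31 in E. globulus clone A xylem, 11.30 and 11.16 in E. grandis clone B xylem, and 11.24 and 11.25 in E. grandis clone A xylem. Only E. globulus clone B ramet 2 fell below 11, and the SD over the 10 arrays was 0.11. LYPTUS00S00015217 had 10.62 and 10.44 in leaf, 10.43 and 10.56 in E. globulus clone B, 10.36 and 10.50 in E. globulus clone A, 10.27 and 10.37 in E. grandis clone B, and 10.29 and 10.51 in E. grandis clone A. Leaf ramet 1 was its highest array, while leaf ramet 2 lay among the xylem values.

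LYPTUS00S00005397 was the brightest of the 48, at 12.39 and 12.19 in leaf, 12.26 and 12.16 in E. globulus clone B xylem, 12.39 and 12.13 in E. globulus clone A xylem, 12.17 and 12.00 in E. grandis clone B xylem, and 12.36 and 12.29 in E. grandis clone A xylem. The second ramet was the lower of the pair in each of these 5 groups, by at most 0.26 log2 units. Its mean corresponded to 4819 expression units, and it ranked between the 97.2nd and 98.6th percentile of all features on every array. It was the only one of the 48 features among the brightest 5% on every array, a class of 223 features.

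The remaining features of the 8 with the smallest SD spanned a wide range of brightness. LYPTUS00S00011732 had a mean log2 value of 8.51 with a range of 0.38, LYPTUS00S00008366 one of 8.20 with a range of 0.40, and LYPTUS00S00002328 one of 10.01 with a range of 0.36. Among the brightest 4, LYPTUS00S00011774 averaged 11.12 with a range of 0.49 and LYPTUS00S00014546 averaged 10.82 with a range of 0.47. At the dim end stood LYPTUS00S00007057, LYPTUS00S00015779 and LYPTUS00S00000787, with means of 8.0, 8.13 and 8.14.

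**Figure D1:**
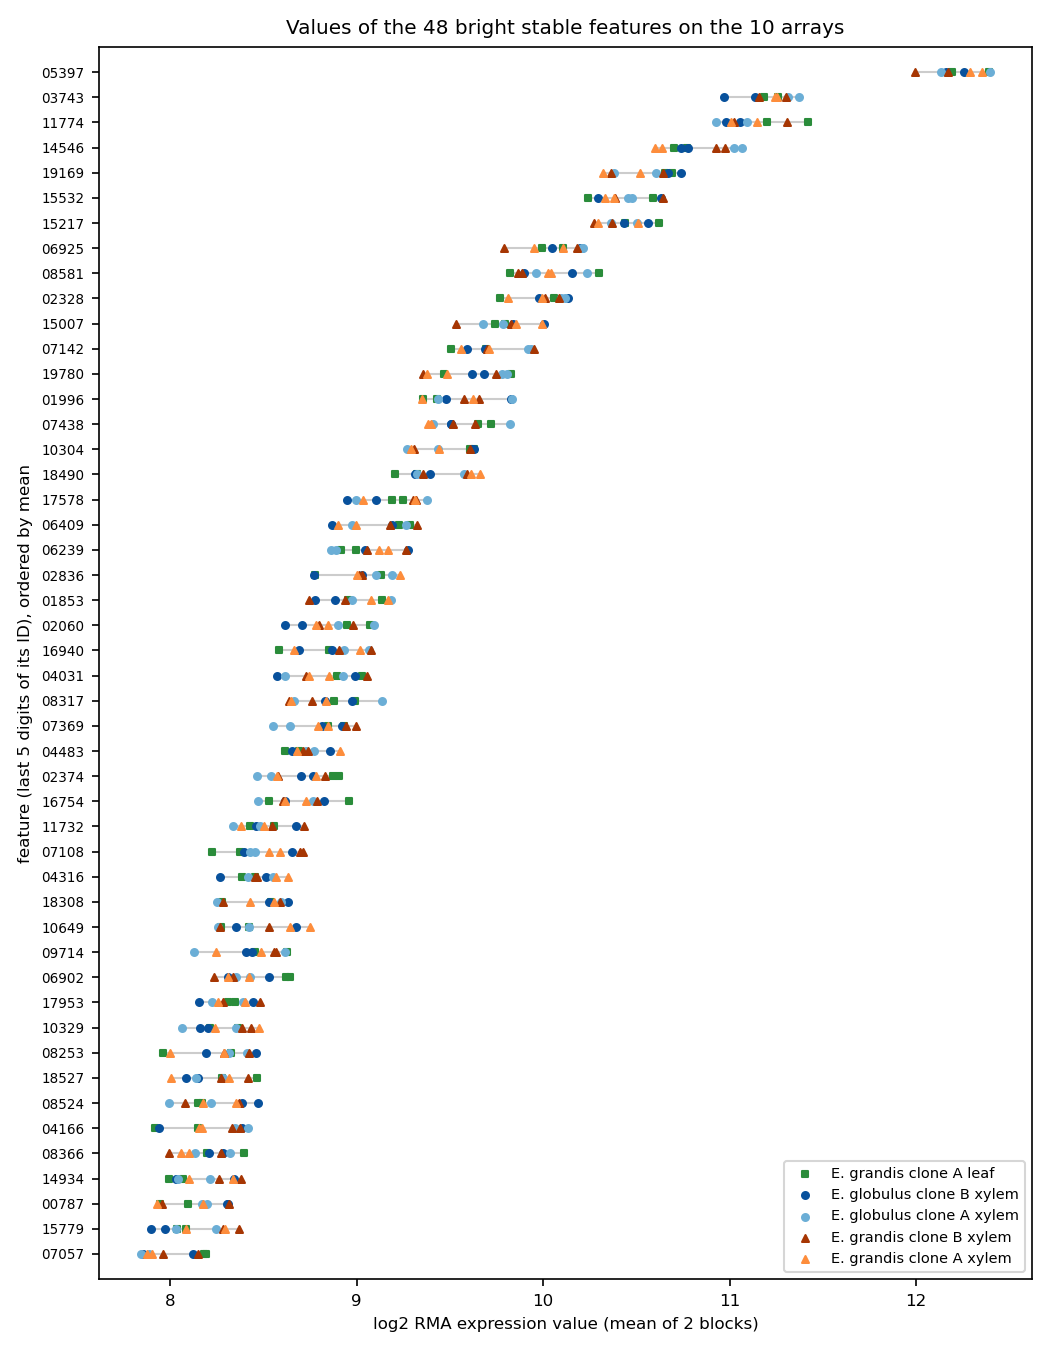
Log2 RMA expression values (horizontal axis) of the 48 bright stable features (rows, labelled by the last 5 digits of the ID and ordered by mean) on the 10 arrays, with 1 symbol per array coloured by group and a grey line over the range. No row is wider than 0.5 log2 units by the rule, the means run from 8.0 to 12.23, and leaf symbols lie at either end or inside the rows.

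Over all 48 features the SD over arrays ran from 0.09 to 0.18 log2 units with a median of 0.15, and the highest array was 1.23- to 1.41-fold the lowest. On the linear scale the coefficient of variation ran from 6.47% to 12.8%. The other 6551 features above every array median had a median SD of 0.46 and a median range of 1.47, which the rule fixes to be wider. The limit cuts through a rising number of features. There were 22 bright features with a range from 0.45 to 0.5, 29 with one from 0.5 to 0.55 and 37 with one from 0.55 to 0.6. Just inside lay LYPTUS00S00008253 and LYPTUS00S00004166, both at 0.499, and LYPTUS00S00008317 at 0.495. Just outside lay LYPTUS00S00019750 and LYPTUS00S00009283, both at 0.501, and LYPTUS00S00004072 at 0.504. At the brightness limit, LYPTUS00S00007057 was above the median of E. globulus clone A ramet 2 by 0.002 log2 units and LYPTUS00S00015779 above that of E. globulus clone B ramet 1 by 0.054. The nearest feature with a narrow range on the other side, LYPTUS00S00021386, lay below 2 array medians, by at most 0.06.

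Brightness was not spread evenly over the set. The 48 features had a median mean log2 value of 8.85, against 9.68 for the other bright features. The bright features were split into 4 equal classes by mean log2 value. Of the 1649 features in the dimmest class 28 belonged to the set (1.7%), against 8, 7 and 5 features in the classes above it (0.485%, 0.424% and 0.303%). The median range of bright features also differed between these classes, at 1.19, 1.49, 1.61 and 1.72 log2 units from dim to bright. A dim feature near the array background can have a compressed range, and background was not measured here, so its part in the number of dim features was not tested. Ranked by percentile instead of log2 value, the 48 features moved over 1.42 to 11.1 percentile points between arrays with a median of 8.20. The 4 smallest moves were those of the 4 brightest features, but percentile points are close together at the top of the distribution, so a given log2 change moves a bright feature by fewer points. LYPTUS00S00003743 stayed between the 93.5th and 96.1st percentile and LYPTUS00S00014546 between the 90.3rd and 93.8th, while LYPTUS00S00004483 moved between the 65.9th and 71.0th.

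**Figure D2:**
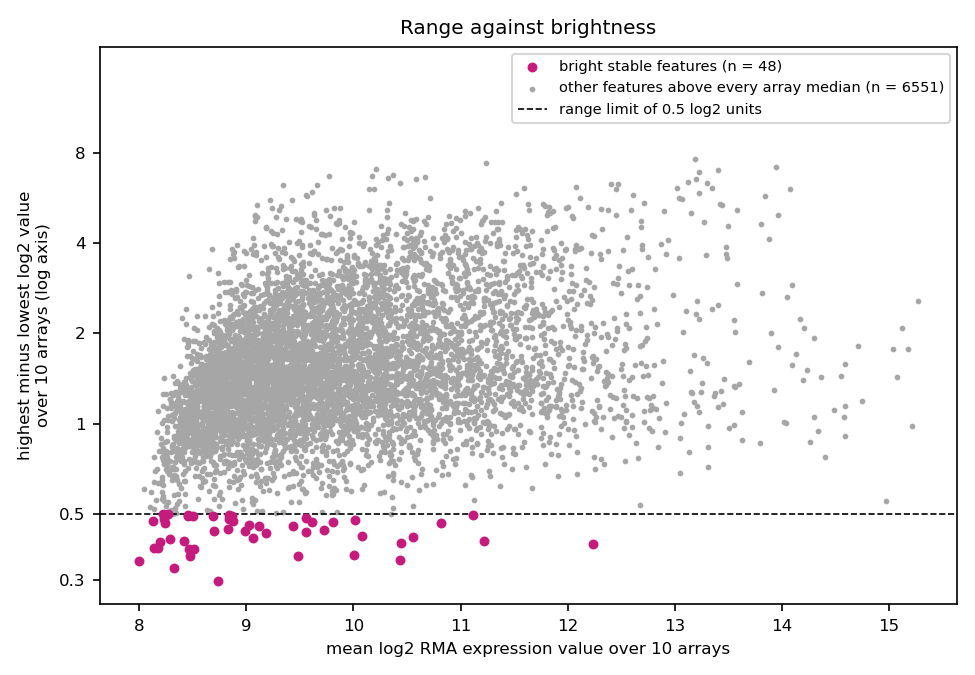
Range over the 10 arrays (vertical log axis, highest minus lowest log2 value) against mean log2 RMA expression value (horizontal axis) for the 48 bright stable features (coloured) and the other 6551 features above every array median (grey). The dashed line is the limit of 0.5, and most coloured points lie at the dim end, 28 of them in the dimmest of 4 equal brightness classes.

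Leaf and xylem were compared within E. grandis clone A, for which both tissues came from the same 2 trees. The difference of the leaf mean from the xylem mean ran from -0.37 to 0.31 log2 units over the 48 features, with a median of 0.01. It was positive for 27 features and negative for 21. LYPTUS00S00006409 had the largest positive difference of the 48, with log2 values of 9.23 and 9.28 in leaf, against 9.0 and 8.90 in xylem, and E. grandis clone B xylem at 9.32 and 9.18 covered the leaf values. LYPTUS00S00007057 followed, with 8.19 and 8.18 in leaf, against 7.88 and 7.90 in xylem. In the other direction LYPTUS00S00018490 had 9.32 and 9.20 in leaf, against 9.66 and 9.62 in xylem, and LYPTUS00S00010649 had 8.27 and 8.42 in leaf, against 8.64 and 8.75 in xylem. Leaf and clone A xylem arrays did not overlap for any of these 4 features, which were picked for their differences. Such separation was not confined to them. The arrays did not overlap for LYPTUS00S00004316 and LYPTUS00S00006902 either, while they did for others, such as LYPTUS00S00004483. The share of features without overlap, among the 48 or over all features, is not given here.

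The species were compared on xylem, as means of 4 arrays each. The difference of E. globulus from E. grandis ran from -0.22 to 0.23 log2 units with a median of -0.02. The 4 arrays of the species overlapped for each of the 48 features. The rule limits the range over these same arrays, which favours such overlap, and its share over all features is not given here. LYPTUS00S00019780 was at the upper end, with 9.68 and 9.62 in E. globulus clone B and 9.78 and 9.81 in E. globulus clone A, against 9.75 and 9.36 in E. grandis clone B and 9.38 and 9.48 in E. grandis clone A. LYPTUS00S00008317 had species means of 8.90 in E. globulus and 8.72 in E. grandis. The lowest differences were those of LYPTUS00S00015779, with means of 8.04 in E. globulus and 8.26 in E. grandis, and of LYPTUS00S00010329, with 8.19 in E. globulus and 8.38 in E. grandis. No source used here names the species behind the probe sequences, and in a species difference the transcript level and the match to the probe cannot be told apart.

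The clones of each species were compared as means of 2 arrays. Clone B differed from clone A in E. grandis xylem by -0.30 to 0.33 log2 units (median 0.08) and in E. globulus xylem by -0.33 to 0.32 (median 0.00). LYPTUS00S00014546 had the largest clone difference of the named features in E. grandis, with 10.98 and 10.93 in clone B, against 10.64 and 10.60 in clone A. In E. globulus the same feature was at 10.78 and 10.74 in clone B, against 11.06 and 11.02 in clone A. It held its range of 0.47 while ramets of a clone lay within 0.08 log2 units of each other, so its spread followed the groups. The median absolute difference between ramets was 0.13 in leaf, 0.15 and 0.16 in E. globulus clones B and A, and 0.17 and 0.13 in E. grandis clones B and A. The median absolute difference between leaf and xylem was 0.14, and that between species 0.08. A ramet value is a difference of single arrays, a tissue value one of means of 2 arrays and a species value one of means of 4, all from arrays on which the rule had set a small spread, so the order of these sizes is not a result.

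Tests of these contrasts across all features used limma with Benjamini-Hochberg adjustment over 21413 features and a threshold of 0.05. The leaf and xylem test did not pair the samples of a tree. Of the 48 features 0 were called between leaf and xylem, with 25.1% of all features called. This background was 5380 features, and 3445 to 5985 without single arrays, the lowest being without E. grandis clone A xylem ramet 1. In the species comparison 0 were called (4.22% of all features), as in the clone comparisons of E. grandis (1.33%) and of E. globulus (0.0234%). At an unadjusted p under 0.05 the count was 0 in each of these 4 contrasts too. Over all 21413 features it was 7140 (leaf and xylem), 4102 (species), 2787 (E. grandis clones) and 1215 (E. globulus clones). The rule used the arrays of each contrast, so the counts of 0 among the 48 features follow from their choice. A missed threshold does not show that levels were equal.

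The arrays did not take part equally in setting the ranges. E. globulus clone A ramet 1 was the highest array for 11 of the 48 features, E. grandis clone B ramet 1 for 9 and leaf ramet 1 for 8, while E. globulus clone A ramet 2 was the highest for 0. The lowest array was leaf ramet 2 for 10 features, E. globulus clone A ramet 2 for 8 and E. globulus clone B ramet 1 for 7. The mean log2 value of all 48 features lay between 9.10 (E. grandis clone A xylem ramet 1) and 9.21 (E. grandis clone B ramet 1), a span of 0.114 over the 10 arrays. The other bright features were on the median 0.131 and 0.211 log2 units below their own means on leaf ramets 1 and 2, and between -0.039 and 0.085 on the xylem arrays. The 48 features had medians of 0.054 and -0.039 on these leaf arrays, and between -0.062 and 0.098 on the xylem arrays. The rule limits the range of the 48 features over these same arrays and so favours their smaller deviations. Over all features the medians were 0.092 and -0.184 on leaf ramets 1 and 2. Among themselves the 48 features did not move as one. Over 1128 pairs of features the correlation of values over the 10 arrays had a median of 0.04 and quartiles of -0.19 and 0.30, a description of points that share their arrays.

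**Figure D3:**
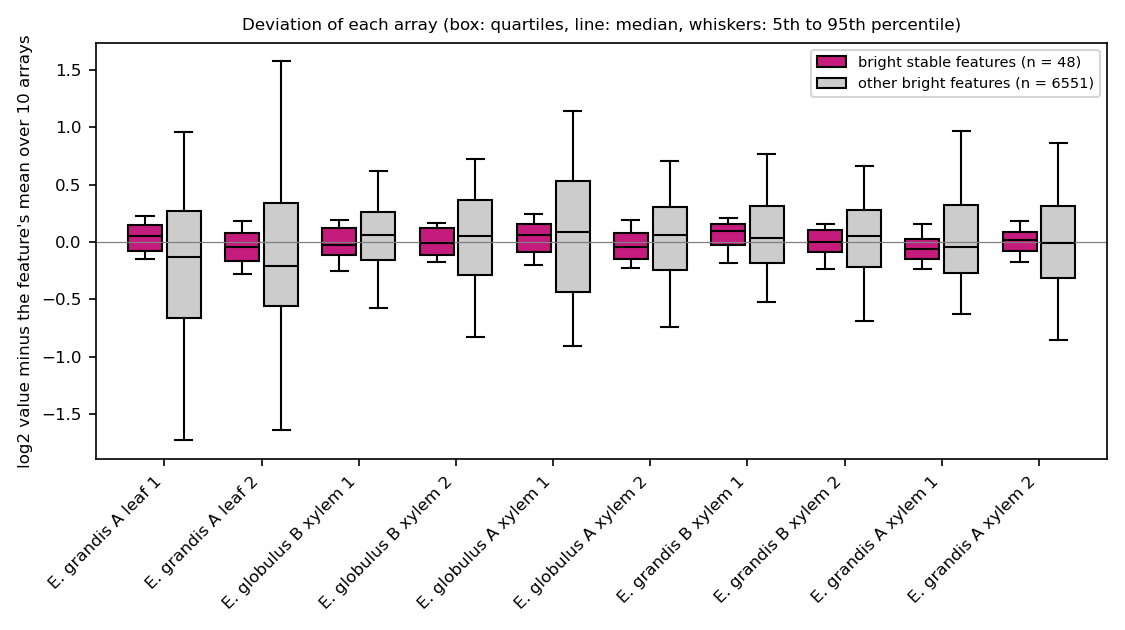
Log2 value minus the feature's own mean over 10 arrays (vertical axis) by array, for the 48 bright stable features (coloured boxes) and the other 6551 bright features (grey boxes); boxes give quartiles and median, whiskers the 5th and 95th percentiles. Grey medians on the leaf arrays are -0.131 and -0.211, while coloured medians stay between -0.062 and 0.098. The rule limits the spread of the coloured features on these same arrays.

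Whether steadiness carries over to arrays that took no part in a choice was read by applying the same rule to part of the arrays. On the 5 ramet 1 arrays alone 491 features passed the rule, the 48 among them. On the 5 ramet 2 arrays, 86 of these 491 had a range under 0.5 (17.5%), against 608 of the 7514 features above every ramet 2 median (8.09%). Not all of the 491 were above every ramet 2 median. Of the 425 that were, 79 had a range under 0.5 (18.6%). The median range on the ramet 2 arrays was 0.81 for the 491 chosen features and 1.10 for all features above the medians. A range under 1 was found for 69.2% and 43.1% in this order. With the roles of the ramets exchanged, 84 of 608 chosen features had a range under 0.5 on the ramet 1 arrays (13.8%), against 491 of 7374 (6.66%). Of the 490 chosen features above every ramet 1 median, 79 did (16.1%). Most features chosen on one set of trees were outside the limit on the other. The gap between these shares was not tested, since features share their arrays. These lists contain the 48 features by construction, and the 48 were not themselves read on any unused array.

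Leaf was read in the same way from a choice on xylem. The rule passed 250 features on the 8 xylem arrays. Of these, 98 had both leaf arrays within 0.5 log2 units of their xylem mean (39.2%), against 1969 of the 7914 features above every xylem median (24.9%). A leaf mean at least 2-fold from the xylem mean was found for 14% of the chosen features and for 33.4% of those above every xylem median. Of the chosen features leaf was higher by 2-fold or more for 18 and lower by 2-fold or more for 17. The share within the limit was 63.2% on leaf ramet 1 alone and 49.6% on leaf ramet 2 alone. For the features above every xylem median it was 41.6% and 38.9% in this order.

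**Figure D4:**
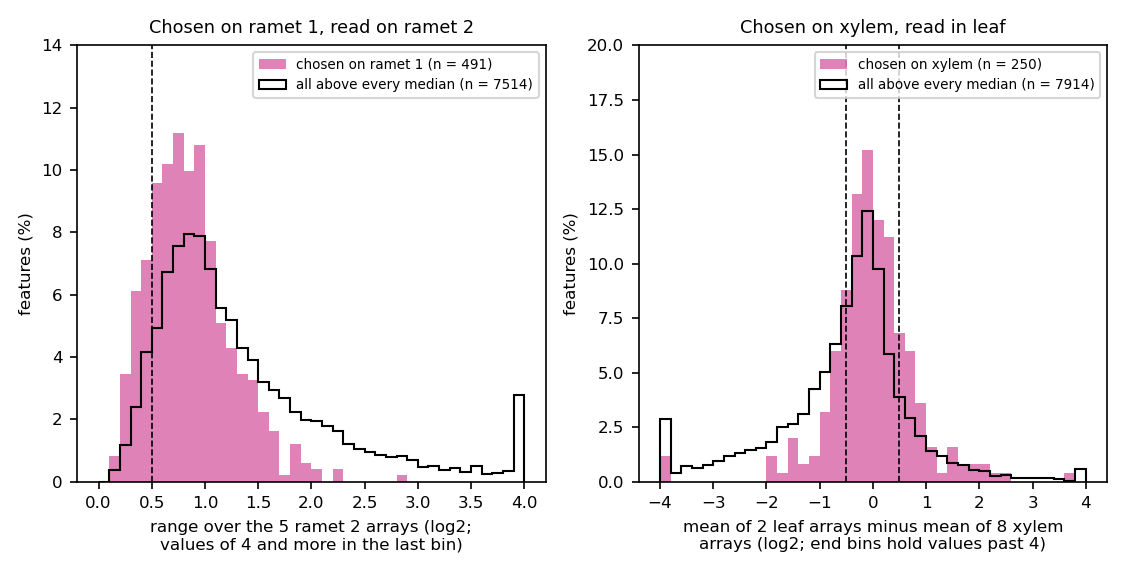
Left, range over the 5 ramet 2 arrays for 491 features chosen on the ramet 1 arrays (filled) and for the 7514 features above every ramet 2 median (outline); right, leaf mean minus xylem mean in log2 units for 250 features chosen on the 8 xylem arrays (filled) and for the 7914 features above every xylem median (outline). The vertical axes give the percentage of features and dashed lines the limit of 0.5; 17.5% of the chosen features lie under it at left, and the chosen features crowd closer to 0 than all bright features at right.

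The blocks of an array give a measure that the rule did not use, since it took their mean and not their difference. The difference between block 1 and block 2 varied over the arrays with a median SD of 0.25 log2 units for the 48 features and 0.23 for the other bright features. In the 4 brightness classes the median SD was 0.256, 0.243, 0.227 and 0.207 from dim to bright, and 28 of the 48 features were in the dimmest. The part of the block SD that remains in a mean of 2 blocks was taken as the SD of the difference divided by 2. It had a median of 0.127 for the 48 features, close to their median SD over arrays of 0.15. For 13 of the 48 features the SD over arrays was below this block error, against 10 of the 6551 other bright features, a contrast that the rule favours. Leaf ramet 1 was the least precise array, with an SD of the block difference over the 48 features of 0.536, against 0.257 to 0.318 on the other arrays.

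Some features differed between the blocks in the same direction on nearly all arrays. With limma on the block differences of the 10 arrays, 19 of the 48 features had a block effect at an adjusted p under 0.05 (39.6%), 7 higher in block 1 and 12 higher in block 2. Of all features 27.3% were called in this test, 13.6% higher in block 1 and 13.7% higher in block 2, and between 16.8% and 28.4% in 4 equal brightness classes of the bright features. Whether the share of the 48 differs from these was not tested, and without single arrays their count was 11 to 19. It was 11 without E. globulus clone A ramet 1, and 12 without leaf ramet 2 or without E. globulus clone A ramet 2.

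LYPTUS00S00010329 had the largest block effect, with a mean log2 value of 8.10 in block 1 and 8.48 in block 2. Block 1 was lower on all 10 arrays, by 0.09 to 0.81 log2 units, and the difference was -0.37 (SE 0.081, limma adjusted p 0.00218). For LYPTUS00S00004316, block 1 averaged 8.64 and block 2 8.30, a difference of 0.35 (SE 0.0896, limma adjusted p 0.00732) with block 1 higher on 8 of 10 arrays. For LYPTUS00S00014546 the difference was -0.33 (SE 0.0833, limma adjusted p 0.00624), with block 1 higher on 1 array only. LYPTUS00S00004483 was also called, at -0.24 (SE 0.0694, limma adjusted p 0.0137), with block 1 lower on all 10 arrays. A block effect that is constant over arrays leaves the range untouched, and the range of LYPTUS00S00004483 was 0.41 in block 1 alone and 0.40 in block 2 alone.

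**Figure D5:**
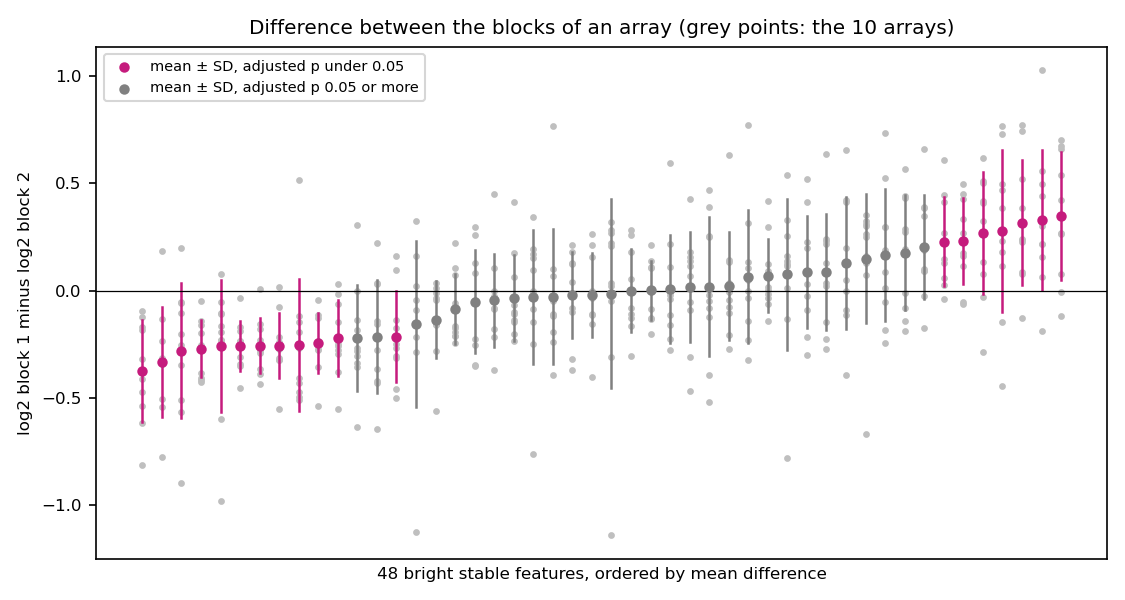
Log2 value in block 1 minus that in block 2 (vertical axis) for the 48 bright stable features ordered by mean difference (horizontal axis); grey points are the 10 arrays, larger points and bars the mean ± SD over arrays, coloured where the limma adjusted p was under 0.05. The 12 coloured features at left were higher in block 2 and the 7 at right higher in block 1.

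Read on a single block, fewer of the 48 features stayed within the limit. The range was under 0.5 for 12 features in block 1 and for 13 in block 2, with median ranges of 0.58 in each. In both blocks separately it was under 0.5 for 4 features, namely LYPTUS00S00004483, LYPTUS00S00015217, LYPTUS00S00015532 and LYPTUS00S00017953. Scaling between arrays mattered as well. After quantile normalisation 21 of the 48 features kept a range under 0.5, after centring each array on its median 37, and after centring and scaling to 1 interquartile range 20. Under quantile normalisation and interquartile scaling, but not under median centring, a smaller share of the brighter features stayed within the limit than of the dimmest. Of the 28 features in the dimmest of the 4 brightness classes, 17 stayed under 0.5 after quantile normalisation, 21 after median centring and 16 after interquartile scaling. Of the 20 features in the 3 brighter classes, 4 stayed after quantile normalisation, 16 after median centring and 4 after interquartile scaling. In the brightest class, 0 of 5 stayed after quantile normalisation and 0 of 5 after interquartile scaling, while all 5 stayed after median centring. The range of LYPTUS00S00005397 was 0.67 after quantile normalisation and 1.32 after interquartile scaling, against 0.40 as deposited. That of LYPTUS00S00015217 was 0.76 and 1.02 under the same scalings, against 0.35 as deposited, and that of LYPTUS00S00003743 was 0.57 and 0.89, against 0.40. The dim LYPTUS00S00004483 hardly moved, at 0.30 and 0.32, against 0.30 as deposited. Dividing by an array's interquartile range moves a value in proportion to its distance from the array median, so that scaling acts most on bright features by construction. Under all 3 of these scalings 15 features stayed within the limit, with 2 of them also within it in each block, LYPTUS00S00004483 and LYPTUS00S00017953. These settings re-read the arrays that chose the 48 features, so the counts are not a check on unused values. These 2 features had SDs of 0.09 and 0.10 over the arrays, among the smallest of the set, which favours their staying. The rule limited the range of the block mean, which favours wider ranges on a single block. How many of all bright features met both conditions is not given here. LYPTUS00S00015532 was named after its values were seen.

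Feature numbers, the last digits of the IDs, gave a further property that the rule did not use. The 48 features ran from number 787 to 19780. Per 4000 numbers they made up 0.465%, 0.895%, 1.1%, 0.532% and 1% of the bright features up to number 20000, and 0 of 289 bright features above it. The number of features per class was 6 to 14 below 20000, too few for an order to be read. No sequence of these features was in the sources used here.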

How the data were processed

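Cy3-labelled RNA of 10 samples was hybridised to 1 array each. The authors deposited intensities on a linear scale, as RMA expression values for each feature and block. RMA is named in the submitters' processing notes, with no version or settings given in the sources used here. Log2 values were taken and the 2 blocks averaged, with no further normalisation. A deposited value table of the series, in the same intensity unit multiplied by 10000, had 10 columns with medians between 2212800.5 and 2373949.5. Its values are not centred. Each column equalled the linear block mean of an array, but 9 of 10 equalled that of another sample's array. The per-array files were used. A range over all 10 arrays does not depend on which array is which, but every value by tissue, species, clone or ramet does, the readings on other arrays included.

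The 48 features, the alternatives and the rule for named features were chosen with earlier results of these data known. Named were the 8 of smallest SD, the 4 brightest, the 3 dimmest, those at the ends of the tissue and species differences, those next to the limits on range and brightness, and the 3 largest block effects. Tests used limma 3.58.1 in R 4.3.3. They were tried on simulated data with planted shifts larger than any contrast or block difference of the 48 features, and without a clone effect. Such data cannot show whether differences as small as those of the 48 features would be called. Tissue and clone contrasts came from 1 mean per group over 10 arrays, with no term for the tree that leaf and xylem samples shared. The species fit used the 8 xylem arrays and treated clone as a random block (estimated correlation 0.219), and the block test an intercept over 10 arrays. The p-values rest on the spread between trees of few clones. Per the labels, each ramet of E. grandis clone A gave both a leaf and a xylem sample. The differences between these ramets correlated across features at -0.354 between leaf and xylem. Other steps used Python 3.11.15 with pandas 2.3.3 and numpy 2.4.6. No per-sample column of another series was used.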

Additional observations from a re-analysis of the deposited data

Results flagged for a closer look

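Among 48 measures searched over the named features and the arrays, 4 had an array far from the rest of its group, a limit that chance passes for about 1 in 20. In E. globulus xylem LYPTUS00S00007057 had a log2 value of 8.12 on clone B ramet 2, against 7.84 to 7.89 on the other 3 E. globulus arrays. LYPTUS00S00004166 had 7.94 on E. globulus clone B ramet 1, against 8.35 to 8.42 on the others. The other 2 measures concern the blocks of leaf ramet 1 over the 48 features. The SD of their block difference was 0.536 there, against 0.257 to 0.318 on the other 9 arrays. The median absolute block difference was 0.419, against 0.172 to 0.231. Both are taken from the same block differences. Leaf ramet 1 stood apart over all features as well, with an SD of 0.587, against 0.285 to 0.364. Over all features its median absolute block difference was 0.376, against 0.178 to 0.231.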

How the results depend on the processing

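The count of 48 bright stable features depended on the limits, on the blocks and on single arrays. It was 12 with a range limit of 0.4 and 114 with 0.6, 16 with the upper quartile of every array as the brightness minimum and 478 with no such minimum. It was 22 on block 1 alone and 19 on block 2 alone. With fewer or averaged arrays it was 250 on the 8 xylem arrays, 490 on the 6 E. grandis arrays and 787 over the 5 group means, and narrower ranges follow there from fewer values. Without single arrays it was 53 to 115, namely 78 without leaf ramet 1, 108 without leaf ramet 2 and 115 without E. globulus clone A ramet 1. With the ramet number removed as a replicate block it was 77, 47 of the 48 among them. Ramet numbers mark the tree shared by leaf and xylem samples in E. grandis clone A and are otherwise only a number. Scalings between arrays gave 38 (quantile normalisation, sharing 21 with the 48), 51 (median centring, sharing 37) and 41 (scaling to 1 interquartile range, sharing 20). The value table and the linear mean of blocks gave 44 each, sharing 42. The cause of these shifts was not tested.

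Features chosen on one set of ramets stayed under the limit on the other in 17.5%, and in 13.8% with ramets exchanged. Over xylem arrays alone, a setting chosen after seeing the data, they did in 43.9%. Of those above every median of the arrays read, 45.4% did. There 28.0% of all features above those medians did. Features chosen on xylem stayed near in leaf in 39.2%, and in 32.3% after quantile normalisation. On leaf ramets 1 and 2 alone, where a single array has to be near, they did in 63.2% and 49.6%. Of all features above every xylem median, 24.9%, 21.9%, 41.6% and 38.9% stayed near in this order of settings. The block effect was called for 19 features, and for 11 to 19 without single arrays, 11 being without E. globulus clone A ramet 1 and 12 without leaf ramet 2 or E. globulus clone A ramet 2. In limma the 4 group contrasts called 0 of the 48 features under quantile normalisation, with the ramet number as a replicate block, with the series of image numbers as a block (chosen after seeing the data), and without any single array (0 to 0). The rule used the arrays of each contrast, so these counts of 0 follow from the choice of the 48 features. The image series parts the arrays by the first digits of their image numbers. How its parts lie over tissue, species and clone is not given here, and whether they mark a batch was not tested. Over all features the counts with the image series as a block were 3977 against 5380 (leaf and xylem), 343 against 903 (species), 140 against 285 (E. grandis clones) and 3 against 5 (E. globulus clones). Without single arrays they were 3445 to 5985 (leaf and xylem), 108 to 1775 (species), 8 to 817 (E. grandis clones) and 2 to 6 (E. globulus clones). The lowest of these were without E. grandis clone A xylem ramet 1, E. globulus clone A ramet 2, E. grandis clone B ramet 2 and E. globulus clone A ramet 1 in this order. With the ramet number as a block the counts over all features were 5369 (leaf and xylem), 630 (species), 309 (E. grandis clones) and 3 (E. globulus clones). After quantile normalisation they were 5655, 1062, 385 and 4 in the same order. Of 400 recomputed ranges of 25 named features (22 of the 48 and features just outside), 352 moved by less than the SD between ramets, 43 were wider and 5 narrower. A range cannot widen when an array is left out, so steadiness in those recomputations was largely set in advance. Of the 25 features, 12 moved on block 1 alone and 15 on block 2 alone. After quantile normalisation 8 moved, after interquartile scaling 8, and after median centring or with the linear mean of blocks 0.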

Other observations

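Among the 250 features steady over the 8 xylem arrays, leaf was far from xylem for some. LYPTUS00S00000279 lay between 8.76 and 9.02 on all xylem arrays, a range of 0.26, and had log2 values of 11.59 and 13.51 in leaf. LYPTUS00S00016520 had 11.01 and 10.75 in leaf, with a range of 0.47 in xylem around values between 8.04 and 8.51. In the other direction, LYPTUS00S00014662 had 8.94 and 7.61 in leaf, against 14.59 to 15.00 in xylem, and LYPTUS00S00018579 had 10.96 and 10.10 in leaf, against 14.60 to 15.06 in xylem. These are the 2 highest and the 2 lowest leaf differences of the 250 features, named after their values were seen.

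Features chosen on the 6 E. grandis arrays were read on the 4 E. globulus arrays. A range under 0.5 was found there for 142 of 490 chosen features (29.0%), against 24.5% of the 8868 features above every E. globulus median. Of the 405 chosen features above every E. globulus median, 129 had such a range (31.9%).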
